A study of Mus musculus with 21 samples.

Results

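The phagocyte NADPH oxidase is the enzyme complex with which microglia, monocytes and neutrophils make superoxide. Its catalytic core sits in the membrane, where gp91phox (Cybb) passes electrons from NADPH to oxygen and p22phox (Cyba) holds it stable. At rest the organiser p47phox (Ncf1) and its partner p40phox (Ncf4) stay in the cytosol, and on activation they move to the membrane with the small GTPase Rac2. The voltage-gated proton channel Hv1 (Hvcn1) lets out the protons that electron transport leaves behind, and in the brain it is best known from microglia. The oxidase of microglia is a main source of reactive oxygen species in injured brain tissue.

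The members were chosen by name as these 6 genes, which are 6 of the 45706 genes in the deposited table, and all 6 passed the filter on low counts. RNA was measured in 21 libraries in 7 groups of 3, from male C57BL/6 mice, either wild type (WT) or Fgg γ390–396A knock-in mice, whose fibrinogen clots but lacks the motif that binds the integrin CD11b/CD18. The injury was controlled cortical impact (CCI), and sham controls were WT mice with anaesthesia and craniotomy but no impact. The day after surgery on which sham mice were sampled is not stated. Sorted CD45low CD11b+ microglia came from sham controls and from both genotypes at 1 d and 7 d post-CCI, and CD45hi CD11b+ infiltrating myeloid cells were collected in WT and mutant mice at 1 d alone. Tissue of 2 brains was pooled at random for each library, there was no sham group of the mutant, and every cell of the mouse carried the mutation.

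Levels are given as CPM, the gene's count relative to the size of its library, with library sizes adjusted by TMM factors. Gene length had been divided out by the authors, so levels of different genes can be set side by side. A gene was called when its adjusted p was under 0.05 and its log2 fold change was above 1 in size, and between genotypes when its adjusted p was under 0.1 with the same fold. Total counts per library ranged from 18896963 to 51875790, and 3 counts corresponded to between 0.0578 and 0.159 CPM, a floor for counting error alone. Each gene of the complex lay far above that floor in each library. In sorted bulk cells, fewer cells of a type and less RNA per cell cannot be told apart.

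The sorted populations carried the markers of their labels. The summed level of 9 microglia markers was 10150 to 11320 CPM in sham microglia, 2755 to 4269 CPM in WT microglia and 4834 to 6290 CPM in mutant microglia at 1 d, and 344.9 to 963.6 CPM in the myeloid libraries. The sum of 8 monocyte markers, none of which was at 0 in any library, was 1958 to 2286 CPM in the myeloid libraries. In microglia it was 6.44, 7.75 and 48.5 CPM in the sham libraries, 84.9 to 147 CPM in WT mice at 1 d and 31.6 to 94.4 CPM in mutant mice at 1 d. The sum of 11 neutrophil markers was 2799 to 13270 CPM in myeloid cells and 105.8 to 871.8 CPM in microglia. Ly6g was at 0 in 9 of 15 microglia libraries, but it was low in myeloid cells too (mean 2.83 CPM in WT and 4.03 CPM in mutant mice). Of the 11, 6 were called higher in WT myeloid cells than in microglia and 0 lower, where 5.61% and 6.31% of all genes were. Yet Ngp, Camp and Ltf had higher means in sham microglia (13.6, 4.71 and 4.65 CPM) than in WT myeloid cells (4.11, 1.63 and 1.99 CPM). Sham replicate 3 had the highest neutrophil, monocyte and border macrophage sums of the sham libraries (817.2, 48.5 and 205.6 CPM), and it also had the highest sham levels of Cybb, Ncf1, Rac2 and Hvcn1.

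The genes lie on 4 chromosomes of GRCm38. Cybb (ENSMUSG00000015340) is at chrX:9435252-9487771 and Cyba (ENSMUSG00000006519) at chr8:122424776-122432930, both on the minus strand. Ncf1 (ENSMUSG00000015950) is at chr5:134220053-134229625 on the minus strand and Hvcn1 (ENSMUSG00000064267) at chr5:122206804-122242297 on the plus strand. Ncf4 (ENSMUSG00000071715) is at chr15:78244801-78262580 on the plus strand and Rac2 (ENSMUSG00000033220) at chr15:78559167-78572783 on the minus strand. The library kit did not mark strand, so reads in the overlap of Cyba with Gm20388, of Ncf1 with Gtf2ird2 and of Hvcn1 with Tctn1, each on the opposite strand, cannot be assigned with certainty.

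RefSeq promoters of GRCm38.p6 were at hand for 3 of the 6 genes, and they are shown so that the sequences of both membrane subunits and the organiser can be read beside their levels. Each line holds the 250 bases before the gene's start, 5′ to 3′ on the gene's strand, and capitals mark letters that match a searched motif. The motifs were the PU.1 core GAGGAA, the AP-1 motif TGANTCA, the GAS motif TTCNNNGAA of STAT factors and the interferon motif GAAANNGAA, on both strands.
Cybb, chrX:9469325-9469574: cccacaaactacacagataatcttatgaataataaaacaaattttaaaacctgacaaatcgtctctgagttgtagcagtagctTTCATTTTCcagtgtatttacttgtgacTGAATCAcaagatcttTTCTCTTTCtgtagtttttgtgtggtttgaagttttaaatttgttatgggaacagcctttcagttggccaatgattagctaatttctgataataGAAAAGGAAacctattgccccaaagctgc
Cyba, chr8:122432941-122433190: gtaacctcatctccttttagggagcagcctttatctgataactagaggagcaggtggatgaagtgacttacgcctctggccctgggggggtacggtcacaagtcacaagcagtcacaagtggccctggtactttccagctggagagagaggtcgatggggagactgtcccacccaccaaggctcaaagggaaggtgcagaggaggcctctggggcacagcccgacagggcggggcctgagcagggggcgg
Ncf1, chr5:134229626-134229875: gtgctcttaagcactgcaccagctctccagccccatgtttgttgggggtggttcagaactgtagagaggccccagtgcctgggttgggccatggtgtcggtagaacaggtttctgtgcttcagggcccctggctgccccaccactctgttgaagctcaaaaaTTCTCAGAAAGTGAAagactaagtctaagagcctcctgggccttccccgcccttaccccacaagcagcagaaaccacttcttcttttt
The Cybb window, which lies inside the longer gene model given above, held 3 matches to the interferon motif and 1 to the AP-1 motif. The Ncf1 window held 1 GAS match and 1 interferon match that share letters, and the Cyba window held no match to these 4 motifs. Over the 32851 promoters of the table, 7.13% held the interferon motif, 6.75% the AP-1 motif, 7.02% the GAS motif and 23.3% the PU.1 core. A match is a description of letters and not a bound site.

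In resting microglia the 2 membrane subunits were present at very different levels. Cyba stood at 119.6, 157.5 and 133.6 CPM in the 3 sham libraries, and Cybb at 2.68, 4.82 and 9.63 CPM. The organiser Ncf1 was as high as Cyba, at 134, 132.5 and 174.8 CPM, and its partner Ncf4 was lower, at 27.2, 18.3 and 15.3 CPM. Rac2 was at 19.2, 17.4 and 24.7 CPM and the proton channel Hvcn1 at 37.1, 55.96 and 76.4 CPM. The catalytic subunit was therefore the lowest of the 6 in each sham library, with a mean of 1.42% ± 0.73 (SD, n = 3) of their summed level. The sum itself was 386.8 ± 47.3 CPM in sham microglia and 385 ± 11.01 CPM in WT microglia at 1 d, with different makeup. That likeness rests on the TMM factors, since with library totals alone the sums were 556.3 ± 42.8 and 332.6 ± 70.3 CPM.

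**Figure D1:**
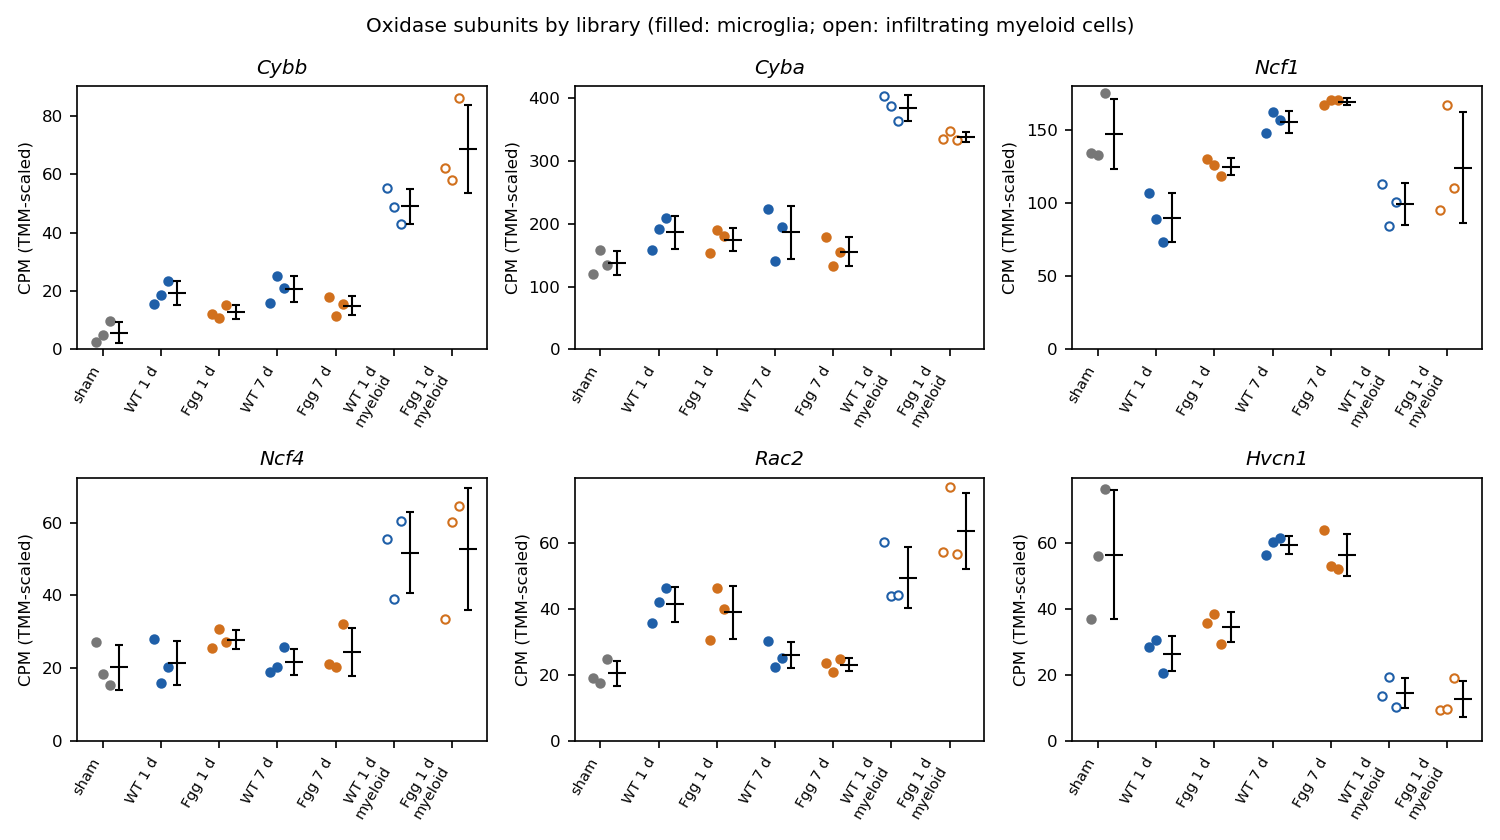
Level of each subunit gene in the 21 libraries (TMM-scaled CPM, linear axis from 0), grouped by genotype, time and cell population. Points are libraries, and the bars beside them are the mean and SD of 3. The sham libraries are lowest for Cybb (2.68 to 9.63 CPM), and the myeloid libraries are lowest for Hvcn1 (9.44 to 19.3 CPM).

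The first comparison asked how microglia of WT mice responded at 1 d post-CCI. Cybb and Rac2 were higher than in sham controls, Hvcn1 was lower, and Cyba and Ncf4 did not pass the test. In total 3 of the 6 genes were called, where 12.3% of the 23815 genes tested were called in the same comparison. At the adjusted p alone, without the fold, 16.7% of all genes and 4 of the 6 passed, Ncf1 being the one added. The median log2 fold change of the 6 was 0.26, against 0 for all genes tested. For genes with a mean of at least 10 CPM, as each of the 6 had, the median was 0.24, close to that of the 6.

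Cybb was at 15.5, 18.7 and 23.6 CPM in WT microglia at 1 d, each above the highest sham library. Its log2 fold change was 1.75 ± 0.33 (SE, adjusted p = 0.000776), a 3.36-fold higher level. Rac2, a GTPase whose GTP-bound form completes the complex, was at 35.8, 41.97 and 46.4 CPM. The groups did not overlap, as was so for 33.8% of all genes in this comparison. The log2 fold change of Rac2 was 1.02 ± 0.20 (adjusted p = 0.00107), just above the fold that a call needed. Cyba, the partner of Cybb, was at 157.9, 192 and 209.9 CPM, with a log2 difference of 0.45 ± 0.18 that did not pass (adjusted p = 0.0959).

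Hvcn1 and Ncf1 lay on the other side of the sham level. Hvcn1 was at 28.4, 30.4 and 20.5 CPM, all below the lowest sham library, and fell by 1.10 ± 0.28 on the log2 scale (adjusted p = 0.00989). Ncf1, which carries the phosphorylation sites that trigger assembly, was at 107.1, 89.1 and 73.4 CPM, again without overlap. Its log2 difference of -0.71 ± 0.19 had an adjusted p of 0.0132 but was smaller than the fold required. Ncf4 was at 28.1, 15.9 and 20.3 CPM and overlapped the sham libraries (log2 difference 0.08 ± 0.28, adjusted p = 0.95). Without sham replicate 3 the Hvcn1 value was -0.82 (adjusted p = 0.0714) and without WT replicate 3 of the 1 d microglia it was -0.91 (adjusted p = 0.0805), neither of which passed. The Rac2 value was under the required fold without sham replicate 1 (0.98), sham replicate 2 (0.92) or WT replicate 3 (0.96) and with DESeq2's test (0.92), at adjusted p-values of at most 0.0102. With library totals in place of TMM factors, which moved the median of all genes by -0.67, the calls of Cybb (0.9989, just under the required fold, adjusted p = 0.0317) and Rac2 (0.26, adjusted p = 0.393) were lost, and Ncf1 passed (-1.40, adjusted p = 0.000781).

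The same genes were measured in microglia of Fgg γ390–396A mice at 1 d, against the same sham libraries. Of the 6, 1 was called where 6.64% of all genes were, and 2 passed at the adjusted p alone where 9.79% of all genes did. Cybb was at 12.3, 10.8 and 15.3 CPM, above each sham library (29.0% of all genes did not overlap here), with a log2 fold change of 1.15 ± 0.33 (adjusted p = 0.0274). Rac2 was at 30.5, 46.2 and 39.98 CPM, also without overlap, and its log2 difference of 0.93 ± 0.20 (adjusted p = 0.0038) was under the required fold.

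The other subunits in mutant microglia at 1 d did not pass. Hvcn1 was at 35.9, 38.3 and 29.4 CPM (log2 difference -0.71 ± 0.28, adjusted p = 0.14), with 1 library above the lowest sham library. Ncf1 was at 129.9, 126.1 and 118.3 CPM, below the sham range but close to it (-0.24 ± 0.19, adjusted p = 0.523). Cyba was at 153.9, 190.8 and 179.8 CPM and Ncf4 at 25.7, 30.7 and 27.3 CPM, with adjusted p-values of 0.268 and 0.367. The Cybb call was lost without mutant replicate 3 (1.01, adjusted p = 0.123), sham replicate 1 (0.81, adjusted p = 0.122) or sham replicate 2 (1.05, adjusted p = 0.12). With library totals alone Cybb did not pass (0.75, adjusted p = 0.177) and Hvcn1 did (-1.10, adjusted p = 0.0328). Rac2 passed without mutant replicate 1 (1.08) or sham replicate 3 (1.09).

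At 7 d post-CCI Cybb was the 1 gene of the 6 called in either genotype, where 2.02% of all genes were called in WT mice and 0.663% in mutant mice. In WT microglia it stood at 16.1, 25.0 and 20.98 CPM, with a log2 fold change over sham of 1.85 ± 0.33 (adjusted p = 0.00299). In mutant microglia it stood at 17.9, 11.6 and 15.7 CPM, with a log2 fold change of 1.39 ± 0.33 (adjusted p = 0.0492). All 6 libraries were above the highest sham library, and 20.1% of all genes in WT and 15.7% in mutant mice had 7 d libraries that did not overlap the sham libraries. The monocyte marker sum in the same microglia was 21.5 to 71.4 CPM in WT and 24.5 to 33.2 CPM in mutant mice, against a sham median of 7.75 CPM, and in a fit that held the markers of infiltrating cells as a covariate Cybb was at 1.83 in WT (adjusted p = 0.0115) and 1.35 in mutant mice (adjusted p = 0.102). The mutant call was lost without any 1 of the 3 mutant libraries or without sham replicate 1 or 2, with log2 values of 1.05 to 1.55 and adjusted p-values up to 0.233. In fits of the compared groups alone neither call passed (adjusted p = 0.0635 in WT and 0.253 in mutant mice), nor did the mutant value with library totals alone (1.09, adjusted p = 0.173).

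The remaining subunits overlapped the sham range at 7 d. Hvcn1 was at 56.3, 60.4 and 61.5 CPM in WT and at 63.8, 53.1 and 52.2 CPM in mutant microglia, and Ncf1 at 147.5, 162 and 156.4 CPM and at 166.9, 170.6 and 170.4 CPM. Rac2 was at 30.3, 22.4 and 25.2 CPM in WT and at 23.4, 20.99 and 24.8 CPM in mutant microglia. Cyba (223.3, 140.6 and 195.6 CPM in WT, 178.9, 132.2 and 155.1 CPM in mutant mice) and Ncf4 (19.1, 20.4 and 25.8 CPM in WT, 21.1, 20.2 and 32.2 CPM in mutant mice) spread more widely. None of these 10 log2 differences passed, and the lowest adjusted p was 0.281, for Cyba in WT mice.

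**Figure D2:**
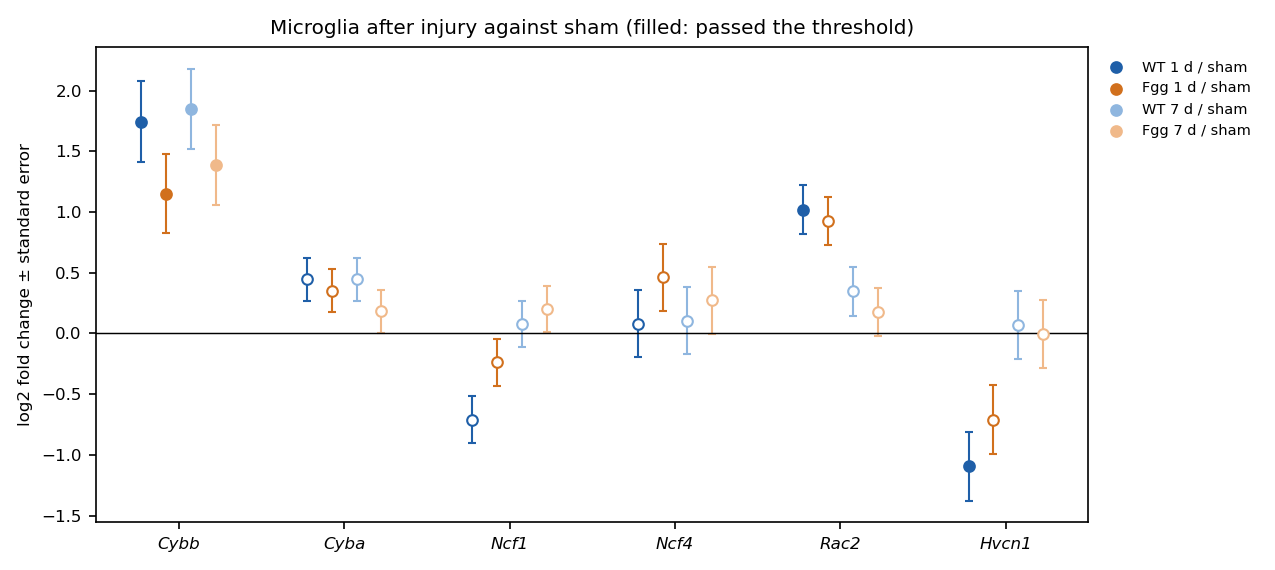
Log2 fold change with its standard error (vertical axis) of each subunit gene in injured microglia against the 3 sham libraries, by genotype and day. Filled points passed the adjusted p and the fold. Cybb is filled at both times in both genotypes, from 1.15 to 1.85, and Hvcn1 lies at -1.10 in WT mice at 1 d and near 0 at 7 d.

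The change from 1 d to 7 d was tested within each genotype, and these comparisons share their injured libraries with those above. In WT microglia 1 of the 6 genes was called, where 7.06% of all genes were, and 3 passed at the adjusted p alone, where 10.3% of all genes did. Hvcn1 was 2.25-fold higher at 7 d than at 1 d (log2 1.17 ± 0.28, adjusted p = 0.0102). Ncf1 was higher by 0.79 ± 0.19 (adjusted p = 0.0103) and Rac2 lower, at -0.67 ± 0.20 (adjusted p = 0.0338), and for all 3 genes the libraries of the 2 times did not overlap, as for 29.4% of all genes. Cybb differed by 0.10 ± 0.32 between the times and Cyba by 0.00 ± 0.18, with adjusted p-values of 0.959 and 1. Without WT replicate 3 of the 1 d microglia the Hvcn1 value was 0.96 (adjusted p = 0.0945).

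In mutant microglia 0 of the 6 were called between the times by edgeR, where 3.54% of all genes were, and 0 by DESeq2, which called 1209 of the 23815 genes. At an unadjusted p under 0.05 there were 3, where 16.4% of all genes were, and at the adjusted p alone there was 1, Rac2, where 5.64% of all genes passed. Rac2 differed by -0.75 ± 0.20 (adjusted p = 0.0289), Hvcn1 by 0.71 ± 0.28 (adjusted p = 0.189) and Ncf1 by 0.44 ± 0.19 (adjusted p = 0.244). The libraries of the 2 times did not overlap for any of these 3 genes, nor for 27.3% of all genes.

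Infiltrating myeloid cells, the CD45hi population, were compared with microglia of the same genotype at 1 d. The sum of 5 border macrophage markers was 1151 to 2018 CPM in WT and 1205 to 1974 CPM in mutant myeloid libraries. In microglia at 1 d it was 112.8 to 217.4 CPM in WT and 94.8 to 119.3 CPM in mutant mice. Cells from the blood and border macrophages within this gate cannot be told apart here. The myeloid cells carried more of both membrane subunits and of Ncf4, and less of Hvcn1. In WT mice 3 of the 6 genes were called, all higher, where 11.9% of all genes were called, and 4 passed at the adjusted p alone, where 15.7% of all genes did. In mutant mice 2 were called, 1 higher and 1 lower, where 16.7% of all genes were, and 5 passed at the adjusted p alone, where 21.4% of all genes did. Myeloid and microglia libraries at 1 d did not overlap for 4 of the 6 genes in WT and 5 in mutant mice. The same was so for 29.2% and 32.1% of all genes.

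Cybb was at 55.2, 48.7 and 43.1 CPM in WT myeloid cells and at 62.3, 58.0 and 86.1 CPM in mutant myeloid cells. These were the highest levels of the gene in the series, and the log2 fold change over microglia was 1.35 ± 0.32 in WT mice (adjusted p = 0.00628) and 2.43 ± 0.33 in mutant mice (adjusted p = 2.99e-05). Cyba was at 403.8, 387 and 363.4 CPM in WT and at 334.3, 347.2 and 333.7 CPM in mutant myeloid cells, above each microglia library of the series. Its log2 fold change was 1.04 ± 0.18 in WT mice (adjusted p = 0.000329) and 0.95 ± 0.18 in mutant mice (adjusted p = 0.000621), the latter under the required fold. Without WT microglia replicate 1 the WT value was 0.94, and the mutant value passed without mutant microglia replicate 2 (1.02) or mutant myeloid replicate 1 (1.07).

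Ncf4 was at 55.6, 39.1 and 60.5 CPM in WT and at 33.6, 60.3 and 64.6 CPM in mutant myeloid cells. Its log2 fold change was 1.27 ± 0.28 in WT mice (adjusted p = 0.0033) and 0.92 ± 0.28 in mutant mice (adjusted p = 0.0216). Mutant myeloid replicate 1 was the low library, and without it the mutant value was 1.28 and passed. Ncf1 showed no such difference, at 113.2, 84.6 and 100.9 CPM in WT and 94.9, 167 and 110.2 CPM in mutant myeloid cells (adjusted p = 0.689 and 1).

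Hvcn1 was at 13.5, 19.3 and 10.3 CPM in WT and at 9.44, 9.70 and 18.98 CPM in mutant myeloid cells, below each microglia library. It fell by 1.44 ± 0.29 against microglia in mutant mice (adjusted p = 0.00117), and in WT mice the value of -0.88 ± 0.29 (adjusted p = 0.041) was under the required fold, although without WT myeloid replicate 2 it was -1.11 and passed. Rac2 was at 60.2, 43.9 and 44.2 CPM in WT and at 57.1, 76.7 and 56.6 CPM in mutant myeloid cells. The log2 difference from microglia was 0.26 ± 0.20 in WT mice (adjusted p = 0.418) and 0.71 ± 0.20 in mutant mice (adjusted p = 0.0142, under the required fold). With DESeq2's test 4 genes were called in mutant mice, Cybb, Cyba, Ncf4 and Hvcn1, where it called 20.2% of all genes.

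**Figure D3:**
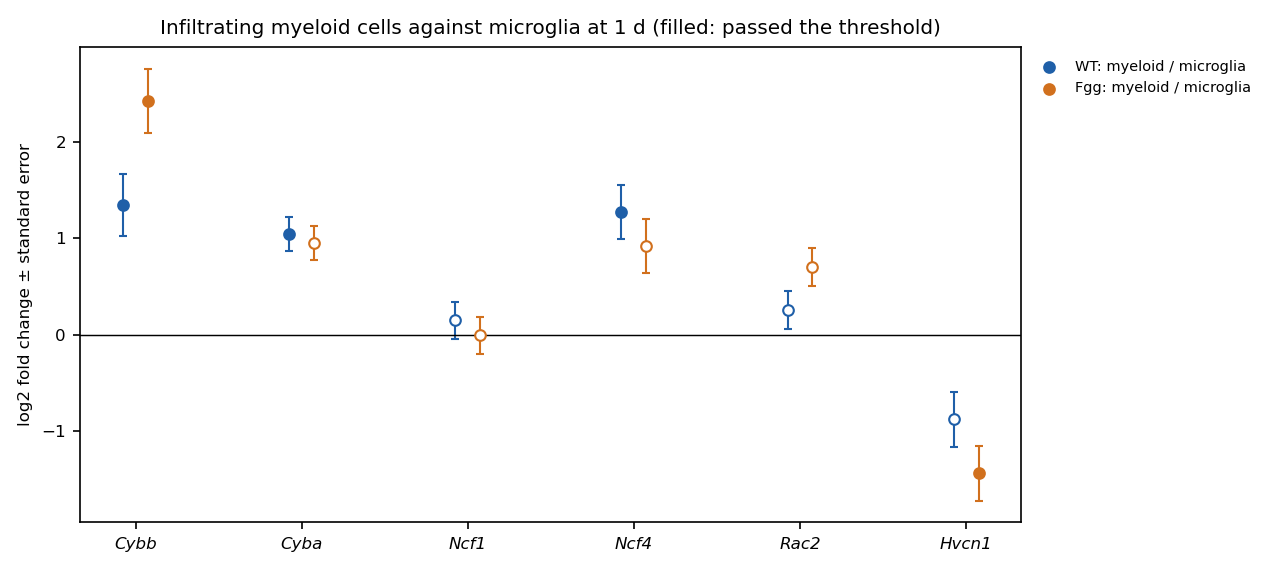
Log2 fold change with its standard error (vertical axis) of infiltrating myeloid cells over microglia at 1 d, in WT and Fgg γ390–396A mice. Filled points passed the adjusted p and the fold. Cybb lies at 1.35 in WT and 2.43 in mutant mice, and Hvcn1 lies below 0 in both.

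The effect of the Fgg mutation was tested directly in each population. In microglia at 1 d edgeR called 0 of the 6 genes (0.0546% of all genes), in microglia at 7 d 0 (0.0378%) and in myeloid cells at 1 d 0 (0.453%). DESeq2 also called 0 of the 6 in each, where it called 104, 80 and 841 of the 23815 genes. At an unadjusted p under 0.05 edgeR gave 1, 0 and 0 of the 6, where 5.08%, 3.34% and 11.5% of all genes were. Cybb in mutant microglia was lower than in WT microglia at 1 d in 3 of 3 libraries, with a log2 difference of -0.60 ± 0.32 (adjusted p = 0.89). Ncf1 was higher in 3 of 3 (0.47 ± 0.19, adjusted p = 0.89), and this was the one gene with an unadjusted p under 0.05. In that comparison 8.72% of all genes had groups that did not overlap.

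At 7 d the mutant values were -0.46 ± 0.32 for Cybb and 0.12 ± 0.19 for Ncf1, both with an adjusted p of 1. In myeloid cells Cybb lay on the other side, higher in mutant mice in 3 of 3 libraries by 0.49 ± 0.32 (adjusted p = 0.541). Cyba was lower there in 3 of 3 libraries, by a log2 difference of -0.19 ± 0.18 (adjusted p = 0.725). The groups of 8.02% of all genes did not overlap in that comparison. The other values of these comparisons lay between -0.26 and 0.39 on the log2 scale, with standard errors of up to 0.28.

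The interaction tests asked whether the mutation acted differently by day or by population. Here a gene was called at an adjusted p under 0.1, with no fold required. For genotype by time, 0 of the 6 genes and 0.0% of all genes were called by edgeR, 653 of all genes and 0 of the 6 had an unadjusted p under 0.05, and DESeq2 called 33 of all genes. For genotype by cell type, 0 of the 6 genes were called by edgeR and by DESeq2, where 0.0462% of all genes were called by edgeR and 259 of all genes by DESeq2. Cybb had the only unadjusted p under 0.05 there among the 6, where 8.37% of all genes had one, with a difference between the 2 genotype effects of 1.08 ± 0.45 on the log2 scale (adjusted p = 0.542).

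**Figure D4:**
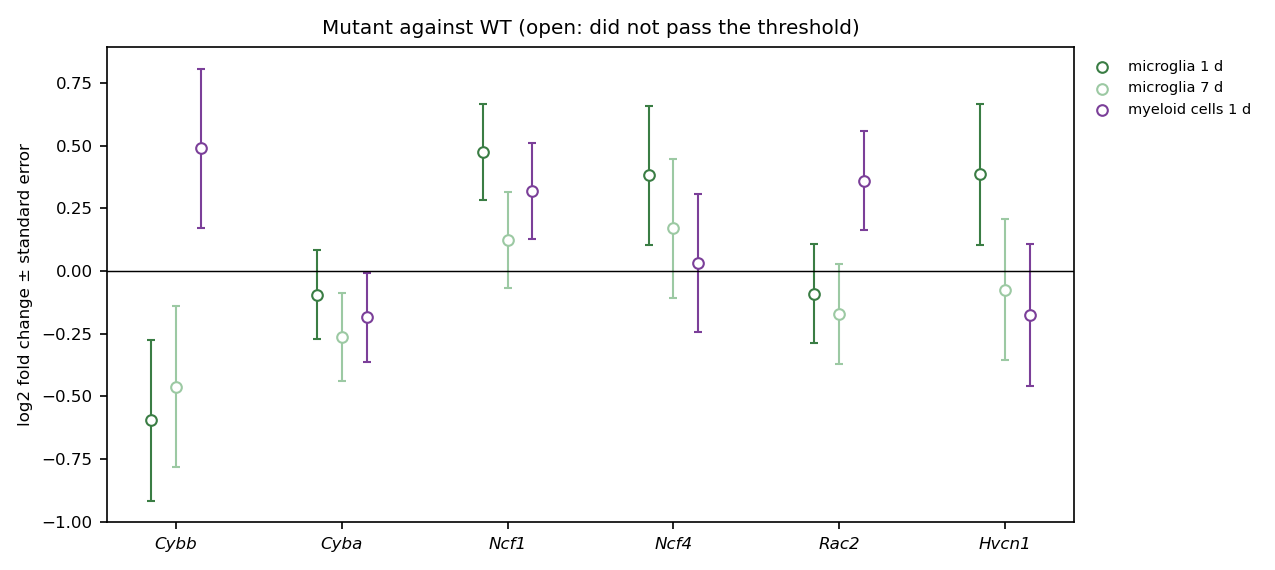
Log2 difference with its standard error (vertical axis) between Fgg γ390–396A and WT mice for each subunit gene, in microglia at 1 d and 7 d and in myeloid cells at 1 d. Open points did not pass the threshold, and no point is filled. Cybb lies at -0.60, -0.46 and 0.49.

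Ratios within a library do not depend on the scaling between libraries and are given as a description. Ncf1 was 31.9 ± 16.4 (SD, n = 3) times Cybb in sham microglia, 4.93 ± 1.90 times in WT and 10.0 ± 2.05 times in mutant microglia at 1 d. At 7 d the ratio was 7.70 ± 1.37 in WT and 11.7 ± 2.80 in mutant microglia, and in myeloid cells it was 2.04 ± 0.30 and 1.89 ± 0.86. The organiser was above the catalytic subunit in each group mean, least so in the myeloid cells. The ratio of Hvcn1 to Cybb was 11.1 ± 2.99 in sham microglia, 1.44 ± 0.51 and 2.80 ± 0.83 in WT and mutant microglia at 1 d, and 2.95 ± 0.55 and 3.83 ± 0.67 at 7 d. In WT and mutant myeloid cells it was 0.29 ± 0.09 and 0.18 ± 0.04, so the group mean was under 1 in the myeloid cells only. Rac2 to Cyba was 0.22 ± 0.004 in WT microglia at 1 d and 0.22 ± 0.02 in mutant microglia at 1 d, against 0.15 ± 0.04 in sham microglia, without overlap between the injured and sham libraries.

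**Figure D5:**
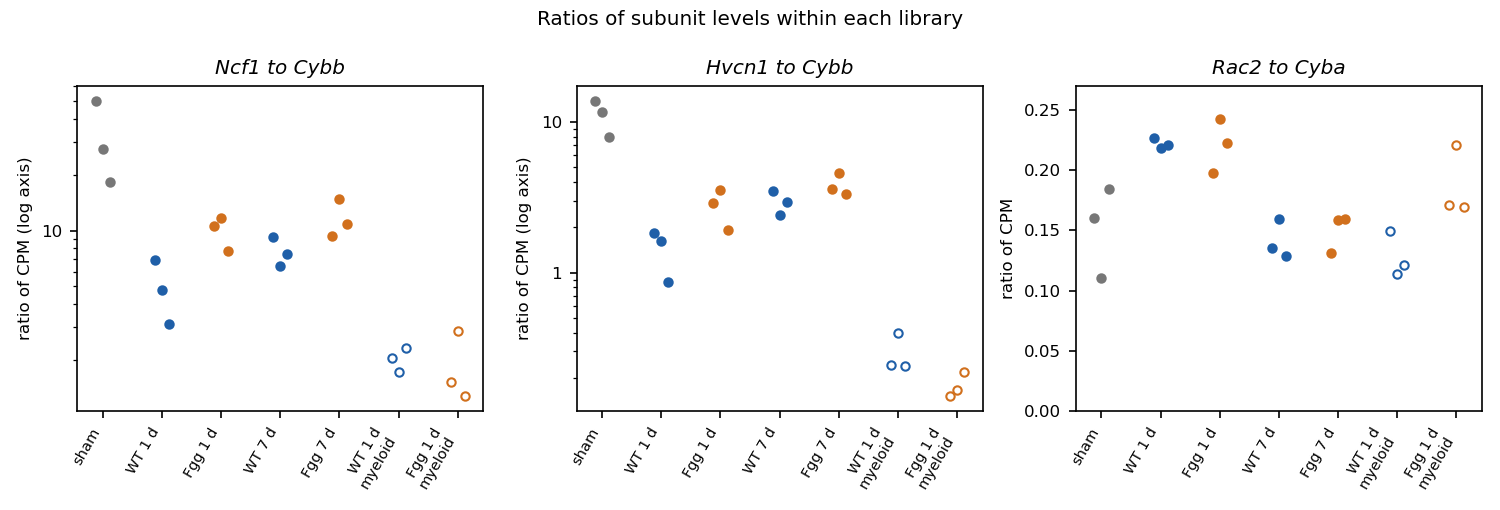
Ratio of 2 subunit genes in each library, by group: Ncf1 to Cybb and Hvcn1 to Cybb on log axes, Rac2 to Cyba on a linear axis from 0. Points are libraries. Hvcn1 to Cybb runs from 7.93 to 13.9 in sham microglia down to 0.15 to 0.40 in myeloid cells.

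Each gene had its own order over the 7 groups. For Cybb the mutant myeloid cells were highest (68.8 CPM), followed without overlap by WT myeloid cells (49.0 CPM), then by the 4 injured microglia groups, each overlapping its neighbour in the order (20.7 to 12.8 CPM), and by sham microglia (5.71 CPM) without overlap. For Hvcn1 the order was headed by WT microglia at 7 d, sham microglia and mutant microglia at 7 d, which overlapped at 59.4 to 56.4 CPM, followed by both 1 d microglia groups at 34.5 and 26.4 CPM and by the myeloid groups at 14.4 and 12.7 CPM. For Ncf1 the lowest group was WT microglia at 1 d (89.9 CPM), which overlapped both myeloid groups. For Rac2 both 1 d microglia groups lay above all 7 d and sham microglia, and WT microglia at 1 d overlapped WT myeloid cells.

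Over the 21 libraries, correlations of log2(CPM + 1) describe these shared patterns, with points that share groups and pooled injury states. Rac2 and Hvcn1 had r = -0.86 over 21 libraries and -0.72 over the 15 microglia libraries. Ncf1 and Hvcn1 had r = 0.91 over the microglia libraries. Cybb and Cyba had r = 0.87 over all libraries and 0.57 within microglia. Among 5116 protein-coding genes with a mean of at least 10 CPM, the patterns most like Cybb were those of Slfn2, Ifitm3 and Fgl2 (r = 0.97, 0.96 and 0.96), and those most like Cyba were Atox1, Atp6v0c and Gabarap (r = 0.97 each). The closest to Rac2 were Tpd52, Trappc1 and Tubb6 (r = 0.96 each), and to Hvcn1 Plxdc1, Epb41l2 and Mgat4a (r = 0.96 each). Ncf1 had weaker neighbours, Trpm2, Setd2 and Mlxip (r = 0.89 to 0.88), as had Ncf4, with 1810037I17Rik, Kdm6b and Lrrfip1 (r = 0.92 to 0.89).

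The other genes of the pathway were counted in 5 lists. Arhgdia, a GDP-dissociation inhibitor that keeps Rac proteins in the cytosol, belongs to the list of other subunits and assembly factors. It was called higher by 1.18 ± 0.23 in WT microglia at 1 d (adjusted p = 0.0011). Rac1, of the same list, was not called in that comparison. Its means were 433.4 CPM in sham and 475.3 CPM in WT microglia at 1 d, far above those of Rac2 (20.4 and 41.4 CPM).

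Other NADPH oxidases were at low levels or not detected. Of 9 paralogs, organisers and maturation factors, 3 passed the filter on low counts, while Nox3, Nox4, Duox1, Duox2, Noxa1 and Duoxa2 had at most 3 counts in any library. Duoxa1 was called lower in WT microglia at 1 d (log2 -4.49), with means of 1.78 CPM in sham and 0.075 CPM in those libraries. Noxo1 and Duoxa1 were called lower in mutant myeloid cells than in mutant microglia, where their means were 1.08 and 0.50 CPM. Those microglia libraries spread widely, from 0.34 to 2.06 CPM for Noxo1 and from 0 to 1.21 CPM for Duoxa1. Of 16 kinases, lipid kinases and exchange factors that act on the complex, 2 rose and 4 fell in WT microglia at 1 d, where 8.06% of all genes rose and 4.21% fell. Pla2g4a, the cytosolic phospholipase whose arachidonic acid aids assembly, rose by 1.47 ± 0.25 (adjusted p = 0.000276), and Prkcd, a kinase of p47phox, fell by 1.37 ± 0.21 (adjusted p = 8.67e-05). The median of that list was -0.22, against 0 for all genes and 0.24 for genes with a mean of at least 10 CPM. With library totals in place of TMM factors the called genes of these lists that had counts in both groups kept their sign, but many were smaller. Of those called higher in WT microglia at 1 d, Sod1 (0.28), Arhgdia (0.38), Tkt (0.52), Sod2 (0.55) and Pla2g4a (0.69) were then under the required fold. Vav3 (1.13) was not. In mutant microglia at 1 d, 1 of the 16 rose, where 5.49% of all genes did, and this was Pla2g4a, by 1.29 ± 0.25 (adjusted p = 0.00152). With library totals, Pla2g4a (0.86) and Tkt (0.81) were under the required fold in mutant microglia at 1 d too. In myeloid cells of both genotypes 2 were higher than in microglia, the Rac exchange factors Vav3 and Tiam1, and 2 lower, Prkca and Pla2g4a. Of all genes, 5.61% were higher and 6.31% lower in WT myeloid cells, and 6.96% were higher and 9.7% lower in mutant myeloid cells.

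Among 6 genes of NADPH supply, Tkt, transketolase of the pentose phosphate pathway, rose in microglia at 1 d by 1.28 ± 0.17 in WT (adjusted p = 2.27e-05) and 1.25 ± 0.17 in mutant mice (adjusted p = 6.25e-05), and none of the 6 was called against sham at 7 d. Taldo1, transaldolase, was called higher in myeloid cells in both genotypes, by 1.57 ± 0.19 and 1.73 ± 0.19. Among 5 genes that handle superoxide and its products, the dismutases Sod1 and Sod2 rose in WT microglia at 1 d, by 1.04 ± 0.16 (adjusted p = 0.000108) and 1.33 ± 0.26 (adjusted p = 0.001). In that comparison 8.06% of all genes rose. None of these 5 was called in mutant microglia at 1 d, but the means of Sod1 (221.2 CPM) and Sod2 (14.7 CPM) there were also above sham (122.6 and 7.94 CPM). No gene of the 5 lists was called between genotypes. For each listed gene that passed the filter on low counts, the difference itself was tested and did not pass.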

How the data were processed

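Sorted microglia and infiltrating myeloid cells were measured by RNA-seq in 21 libraries, 3 per group, grouped by the sample labels. The authors quantified reads with salmon in nf-core/rnaseq on GRCm38 and deposited expected counts, scaled so that gene length is divided out and each library sums to its mapped reads. These values are not normalized between libraries, are not read numbers and were rounded here. Symbols came from GENCODE M21, which matched 45143 of 45706 identifiers. A gene needed at least 5 counts summed across libraries to be tested. Counts were tested with edgeR 4.0.16 in R 4.3.3 (TMM, glmQLFit and glmQLFTest, Benjamini-Hochberg over 23815 genes) in one fit with 1 mean per group, a design that was tested on simulated data. Thresholds followed the study's methods, except in the interaction tests, which the study did not describe. DESeq2 1.42.0 was an alternative. Named genes were the 6 subunits, some but not all of the listed genes that passed, and for each subunit the 3 protein-coding genes with the highest correlation. The members and lists were chosen with earlier results of these data known. Replicate numbers met the pairing rule in 1 of 11 comparisons, mutant against WT microglia at 1 d, where deviations of same-numbered libraries had r = 0.44, 0.21 and 0.13. A listed gene is not reported here. Within a cell population each library is a separate pool of brains. Whether microglia and myeloid libraries at 1 d came from the same pools is not stated, and the main fit did not pair them. The contrasts share libraries, sham controls among them, so they are not independent of each other. Ribosomal RNA genes took 43.0% to 58.5% of a library.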

Additional observations from a re-analysis of the deposited data

How the results depend on the processing

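Of the counts of subunit genes called, that for mutant myeloid cells against microglia was 2, and became 4 with DESeq2's test, DESeq2's size factors, filterByExpr or the compared groups alone, and 5 without the fold. Mutant microglia against sham at 7 d went from 1 to 0 with library totals only, the compared groups alone, or infiltrating-cell markers as a covariate, and the compared groups alone also gave 0 for mutant microglia at 1 d and WT microglia at 7 d. Without the fold the counts were 2 for mutant microglia at 1 d, and 3 and 1 for 7 d against 1 d in WT and mutant mice. Leaving out 1 library gave 1 to 3 for WT microglia at 1 d, 0 to 2 for mutant microglia at 1 d, 0 to 1 for mutant microglia at 7 d, 0 to 1 for WT 7 d against 1 d, and 2 to 4 for mutant myeloid cells. The replicate block changed none of the 13 counts, with 0 for mutant against WT microglia at 1 d, and in that comparison Ncf1 had 0.47 (adjusted p = 0.947). With the marker covariate Cybb in WT microglia at 1 d was 1.76 and Hvcn1 -1.12. The cause was not tested for any of these.

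Library totals without TMM moved the median gene by -0.67 in WT and -0.34 in mutant microglia at 1 d and by -0.47 and -0.25 at 7 d, and several log2 values changed sign with it. Against sham at 1 d, Cyba became -0.31 in WT and -0.077 in mutant mice and Ncf4 -0.61 in WT. At 7 d in WT, Cyba became -0.10, Ncf1 -0.48, Ncf4 -0.47, Rac2 -0.20 and Hvcn1 -0.47, and in mutant mice Cyba -0.14, Ncf1 -0.12, Ncf4 -0.081 and Rac2 -0.15. Cyba at 7 d against 1 d in WT became 0.21. Between genotypes, Cyba and Rac2 became 0.24 and 0.22 in microglia at 1 d, Rac2 and Hvcn1 0.051 and 0.16 at 7 d, and Ncf4 -0.034 in myeloid cells. The calls in WT microglia at 1 d became Ncf1 and Hvcn1, a count of 2, since Cybb was 0.9989 and Rac2 0.26, and in mutant microglia at 1 d the call became Hvcn1 in place of Cybb.

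Other sign changes were of values near 0 that passed in no fit. Cyba at 7 d against 1 d in WT was 0.0844 and 0.0845 with DESeq2's test and size factors and 0.020 with filterByExpr. Ncf1 in mutant myeloid cells against microglia was 0.11 with either DESeq2 setting, 0.13 with filterByExpr and 0.12 with the compared groups alone. Ncf4 in WT microglia at 1 d was -0.016 with either DESeq2 setting, and Hvcn1 in mutant microglia at 7 d was 0.0195 with the replicate block. Leaving out 1 library gave ranges across 0. For Cyba these were -0.21 to 0.17 (WT 7 d against 1 d), -0.18 to 0.015 (genotype by cell type) and -0.34 to 0.0037 (genotype by time). For Cybb they were -0.056 to 0.22 (WT 7 d against 1 d) and -0.023 to 0.29 (genotype by time). For Hvcn1 they were -0.23 to 0.28 and -0.16 to 0.35 (mutant and WT 7 d against sham) and -0.59 to 0.15 (mutant against WT myeloid cells). For Ncf1 they were -0.28 to 0.26 (mutant myeloid cells against microglia) and -0.43 to 0.064 (genotype by cell type). For Ncf4 they were -0.16 to 0.35 (WT 1 d against sham), -0.062 to 0.38 (WT 7 d against sham), -0.21 to 0.27 (WT 7 d against 1 d), -0.077 to 0.31 (genotype at 7 d) and -0.14 to 0.33 (genotype in myeloid cells). For Rac2 they were -0.23 to 0.059 (genotype at 1 d) and -0.23 to 0.068 (genotype by time).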
